A study of Mus musculus with 9 samples.

Results

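The chromatin accessibility of reprogramming cells that carried the same surface marker, SSEA-1, was compared between day 12 (D12S+) and day 16 (D16S+) after the induction of Sox2, Klf4, Oct4 and c-Myc (OSKM). Overlapping peaks of each library were merged on chromosomes 1 to 19. A D16S+ region that shared no base with any D12S+ region was called gained, a D12S+ region that shared none with D16S+ was called lost, and the rest were joined into common regions. This gave 68313 regions, 14127 of them gained, 20543 lost and 33643 common, in a series of 9 libraries that held 606963 regions in all. The cells of both libraries were mouse embryonic fibroblasts (MEFs) from mid-gestation embryos with an IRES-EGFP cassette at Oct4 (Pou5f1), infected with retroviral pMXs vectors for the 4 factors. Per the labels they were kept without feeder cells or passage in medium with LIF, ascorbic acid, bFGF and CHIR99021, and sorted with the SSEA-1 antibody on the day of collection. The remaining libraries of the time course were uninfected MEFs (D0), cells at day 3 (D3), Thy-1-negative cells at day 6 (D6T-) and day 9 (D9T-) and established iPSCs, and 2 further day 6 libraries were treated with siRNA against H3.3 or with a non-targeting siRNA. The accessibility was measured by ATAC-Seq, in which the Tn5 transposase cuts open DNA and the cut ends are sequenced. Each condition had 1 library, so no difference below has a replicate check and no test across samples was possible. The retroviral copies of OSKM are cDNA and could add tags at the exons of Pou5f1, Sox2, Klf4 and Myc, which was not tested.

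SSEA-1 is a fucosylated sugar, Lewis X, which the fucosyltransferases Fut4 and Fut9 make. It appears on the minority of infected fibroblasts that move towards pluripotency, before many genes of the pluripotency network are active. In such cells the fibroblast enhancers, which AP-1 (Fos and Jun dimers) and TEAD factors occupy, close, and the enhancers bound by Oct4 and Sox2 open.

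D12S+ held 17613087 tags and 55759 regions, and D16S+ held 21172835 tags and 48834 regions. The level of a region was its highest pileup, the largest number of extended tags over any of its summits, per 1000000 tags of the library (CPM). The weakest summit called had 8 tags at D12S+ (0.454 CPM) and 9 tags at D16S+ (0.425 CPM). An opening below that level was not detectable, so a gained or lost region is one not called in the other library and not one without tags. About 6.18% of the tags of D12S+ and 5.94% of those of D16S+ were estimated to lie in mitochondrial peaks. The median GC content at the summits was 53.5% in D12S+ and 56% in D16S+. Of the markers of the sorted cells, all 8 pluripotent cell promoters were called in both libraries. Their summed level was 30.0 CPM at D12S+ and 38.3 CPM at D16S+, against 14.1 CPM at D0 and 22.4 CPM in iPSCs. The sum was led by the promoter region of Pou5f1, which was called in every time-course library, D0 included. Of 8 fibroblast promoters 6 were called in each library (summed 4.88 and 4.49 CPM), with Col3a1 and Fap absent from both. The fibroblast sum was 3.75 CPM at D0 and 2.48 CPM in iPSCs. It was thus lower at D0 than in both sorted libraries, and the pluripotent sum was lower in iPSCs, so these sums do not order the libraries by cell identity. The epithelial promoters numbered 5 of 6 at D12S+ and 6 of 6 at D16S+ (8.91 and 9.21 CPM). Of the markers of other lineages, extraembryonic endoderm had 3 of 5 promoters at D12S+ and 4 of 5 at D16S+ (2.78 and 4.11 CPM, with Sox17 absent from both). Endothelium had 3 and 2 of 4 (2.67 and 2.60 CPM, with Pecam1 absent), and blood cells 1 of 4 in each (1.19 and 1.18 CPM, with Ptprc, Csf1r and Itgam absent). The part of such cells in the results below was not tested.

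Sequences under the summits of some gained, lost and common regions are given first, as examples of the words that are counted below. Each is 200 bp around the strongest summit, on the plus strand of mm9, with the motif words named for it in capitals. Some windows hold further words that are not marked, such as TEAD in Zfp42, ZEB in Nanog and ETS in Nr5a2. The first 5 lie at pluripotency genes. Dppa4 (chr16:48283676-48283875, 11 bp from the TSS) and Nr5a2 (chr1:138845281-138845480, inside the gene) were gained and carry the composite OCT-SOX word. Nanog (chr6:122657339-122657538, summit at -41 bp), Zfp42 (chr8:44392364-44392563, promoter, with KLF, ZEB and octamer words) and Fgf4 (chr7:152047086-152047285, promoter, with ZEB and NFY words) were common. Cldn7 (chr11:69778832-69779031), a tight junction gene, was gained at its promoter and holds 4 ZEB words and an ETS word.
Dppa4: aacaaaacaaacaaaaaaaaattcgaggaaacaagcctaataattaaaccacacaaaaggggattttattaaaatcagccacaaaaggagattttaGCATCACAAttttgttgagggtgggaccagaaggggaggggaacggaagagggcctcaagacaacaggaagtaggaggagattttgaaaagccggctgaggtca
Nr5a2: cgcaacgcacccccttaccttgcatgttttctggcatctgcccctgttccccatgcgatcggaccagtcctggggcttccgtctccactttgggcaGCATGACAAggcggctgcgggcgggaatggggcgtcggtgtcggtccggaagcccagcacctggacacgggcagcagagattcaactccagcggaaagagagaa
Nanog: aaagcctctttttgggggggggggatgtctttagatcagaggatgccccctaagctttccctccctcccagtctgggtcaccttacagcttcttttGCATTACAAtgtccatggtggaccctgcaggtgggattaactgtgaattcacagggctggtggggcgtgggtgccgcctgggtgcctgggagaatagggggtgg
Zfp42: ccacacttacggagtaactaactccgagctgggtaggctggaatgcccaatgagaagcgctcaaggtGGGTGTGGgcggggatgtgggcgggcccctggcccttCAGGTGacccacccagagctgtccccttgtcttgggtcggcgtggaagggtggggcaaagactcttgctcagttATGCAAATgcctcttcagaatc
Fgf4: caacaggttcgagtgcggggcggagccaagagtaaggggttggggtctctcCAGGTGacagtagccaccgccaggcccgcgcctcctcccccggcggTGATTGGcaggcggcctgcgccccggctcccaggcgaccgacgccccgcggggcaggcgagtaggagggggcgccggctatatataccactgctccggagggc
Cldn7: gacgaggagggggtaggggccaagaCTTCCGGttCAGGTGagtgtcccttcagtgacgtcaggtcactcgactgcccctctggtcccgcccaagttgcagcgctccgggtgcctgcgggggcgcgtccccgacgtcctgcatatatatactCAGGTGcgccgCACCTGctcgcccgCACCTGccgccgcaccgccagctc

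Of the lost regions, windows in Smyd3 (chr1:180972182-180972381, inside the gene, with AP-1, TEAD and GATA words), near B3gat1 (chr9:26326385-26326584, intergenic, with AP-1 and TEAD words) and in Tgfbr2 (chr9:116062064-116062263, inside the gene, with an AP-1 word) are shown, since the AP-1 word marked the lost set more than any other word searched.
Smyd3: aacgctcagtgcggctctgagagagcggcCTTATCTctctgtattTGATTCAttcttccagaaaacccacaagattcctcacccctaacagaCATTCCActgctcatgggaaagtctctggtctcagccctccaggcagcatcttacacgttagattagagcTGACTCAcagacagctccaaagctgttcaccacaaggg
B3gat1: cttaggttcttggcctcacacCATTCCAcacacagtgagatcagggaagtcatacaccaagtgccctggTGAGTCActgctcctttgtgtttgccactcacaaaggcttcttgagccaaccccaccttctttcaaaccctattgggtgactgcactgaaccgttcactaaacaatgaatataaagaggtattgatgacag
Tgfbr2: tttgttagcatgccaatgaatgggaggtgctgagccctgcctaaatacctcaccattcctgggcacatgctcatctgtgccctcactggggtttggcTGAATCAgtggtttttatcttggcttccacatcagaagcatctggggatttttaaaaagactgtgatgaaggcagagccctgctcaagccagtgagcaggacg

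Many regions of D16S+ lay in sequence that recurs in the genome, and windows that shared 20 or more of their 24-base words were grouped into families, chosen after the values were seen. The windows of family 1 near Tdpoz5 (chr3:93773876-93774075) and C130079G13Rik (chr3:59684228-59684427) are intergenic and carry SOX and ZEB words, and the first a GRHL word. A member of family 2 (chr8:5242022-5242221) holds ZEB and GRHL words, a member of family 3 (chr6:56196475-56196674, inside Pde1c) holds none of the words searched, a member of family 4 (chr11:9872236-9872435) holds an octamer and a ZEB word, and a member of family 6 (chr17:53595498-53595697) holds AP-1 and ZEB words. The family 5 window (chr11:9089647-9089846, at the Abca13 promoter) is a pyrimidine-rich simple repeat and belonged to the lost regions.
Family 1, Tdpoz5: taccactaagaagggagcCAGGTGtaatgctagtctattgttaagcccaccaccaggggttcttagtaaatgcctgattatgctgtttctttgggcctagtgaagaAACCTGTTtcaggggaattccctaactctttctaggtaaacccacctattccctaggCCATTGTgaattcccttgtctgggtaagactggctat
Family 1, C130079G13Rik: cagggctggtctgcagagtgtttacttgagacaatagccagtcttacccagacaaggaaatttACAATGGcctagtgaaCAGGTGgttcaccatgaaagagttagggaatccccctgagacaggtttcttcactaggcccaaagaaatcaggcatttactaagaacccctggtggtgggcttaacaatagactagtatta
Family 2: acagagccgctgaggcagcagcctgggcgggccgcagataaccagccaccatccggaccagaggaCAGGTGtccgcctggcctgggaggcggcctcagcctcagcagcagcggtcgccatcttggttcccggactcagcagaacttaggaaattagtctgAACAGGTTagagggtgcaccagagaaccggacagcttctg
Family 3: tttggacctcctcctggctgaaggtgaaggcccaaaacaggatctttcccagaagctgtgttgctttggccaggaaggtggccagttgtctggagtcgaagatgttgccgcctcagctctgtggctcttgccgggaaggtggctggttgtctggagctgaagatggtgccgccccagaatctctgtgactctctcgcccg
Family 4: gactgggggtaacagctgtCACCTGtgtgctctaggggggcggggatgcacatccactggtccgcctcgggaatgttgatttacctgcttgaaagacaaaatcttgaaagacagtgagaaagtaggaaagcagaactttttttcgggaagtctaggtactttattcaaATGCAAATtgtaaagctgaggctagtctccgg
Family 6: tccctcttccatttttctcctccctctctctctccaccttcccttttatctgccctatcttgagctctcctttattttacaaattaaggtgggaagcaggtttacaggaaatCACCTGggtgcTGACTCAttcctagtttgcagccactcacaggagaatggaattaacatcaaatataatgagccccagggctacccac
Family 5: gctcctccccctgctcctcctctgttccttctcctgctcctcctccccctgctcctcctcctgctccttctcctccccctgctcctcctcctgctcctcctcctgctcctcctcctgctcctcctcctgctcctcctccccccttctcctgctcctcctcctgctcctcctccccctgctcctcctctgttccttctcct

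More regions were lost than gained, and D12S+ held more regions. Gained regions made up 28.9% of the D16S+ regions (14127 of 48834) and lost regions 36.8% of the D12S+ regions (20543 of 55759), or 1.45 lost for each gained. The common regions belong to both libraries, so the excess of lost regions is in the main the difference in the number of regions called. Taking equal numbers of the strongest regions gave 16337 gained and 16170 lost, which are nearly equal by construction. Most gained and lost regions were weak. The gained regions had a median of 13 tags (0.614 CPM), with the middle 50% from 11 to 16 tags and the highest at 48 tags. The lost regions had a median of 12 tags (0.681 CPM) and reached 81 tags (4.6 CPM). At least 2 times the lowest level called in the other library was reached by 24.9% of the lost and by 7.28% of the gained regions. The bars differed, with lowest levels of 0.425 CPM at D16S+ (for lost) and 0.454 CPM at D12S+ (for gained regions). Levels also move in steps of whole tags. The middle 50% of the levels ended at 0.795 CPM in the lost and at 0.756 CPM in the gained regions. Of the gained regions 4.63% had a level below the lowest that was called at D12S+. Of the gained regions 19.4% lay within 1 kb of a D12S+ region, and 13.1% of the lost regions lay within 1 kb of a D16S+ region. More regions were lost than gained on each of the 19 chromosomes, from 1.19 lost for each gained on chromosome 19 to 1.90 on chromosome 9. The chromosomes share the difference in the number of regions called, so they do not add separate evidence.

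In the common regions the levels were alike. The median log2 change, D16S+ over D12S+, was -0.05, and the values from 5% to 95% of the distribution ran from -0.88 to 0.77. At least 2-fold higher at D16S+ were 661 of 33643 common regions (1.96%), and at least 2-fold lower were 1104 (3.28%). With the deposited fold enrichment in place of CPM they were 769 and 670, so which direction was more frequent depends on the scaling. The higher regions had a median of 12 tags at D12S+ and 33 at D16S+, and the lower ones 26 and 13 tags. In the strongest 20% of the common regions 0.624% were higher and 0.847% lower by that measure, against 4.10% and 5.95% in the middle 20% and 0.297% and 1.01% in the weakest 20%. The weakest 20% had median levels of 0.625 CPM at D12S+ and 0.614 CPM at D16S+, near the lowest levels called. A common region must be called in both libraries, so few regions there could differ 2-fold and stay common. Promoters, defined below, made up 34.0% of the common regions but 21.5% of those at least 2-fold higher at D16S+ and 20.4% of those at least 2-fold lower.

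**Figure D1:**
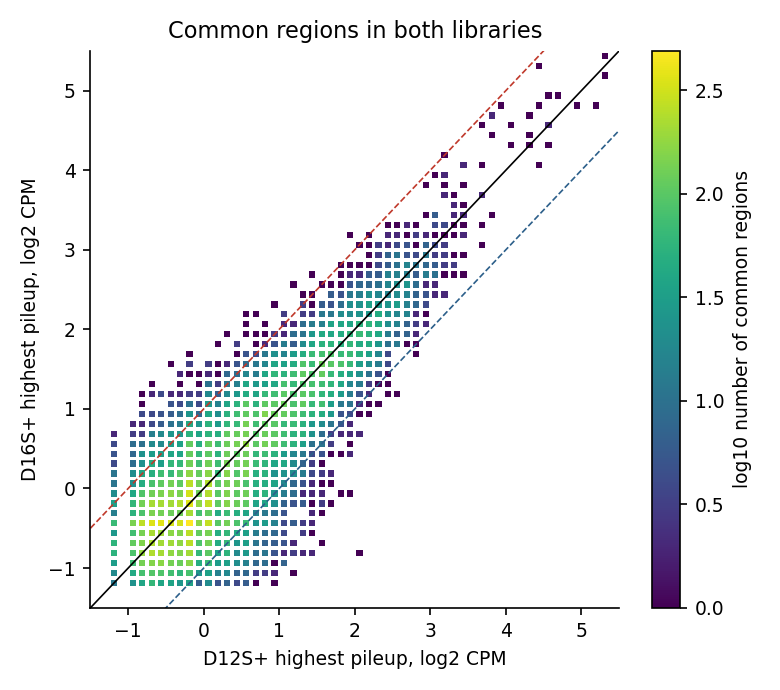
Level of the common regions in the 2 libraries, as log2 CPM of the highest pileup in D12S+ (horizontal) and D16S+ (vertical). Each square is coloured by the log10 number of regions it holds, the solid line is equality, the dashed lines mark 2-fold differences, and 21 regions lie beyond the plotted range of -1.5 to 5.5. Most of the 33643 regions lie between the dashed lines, with 661 above and 1104 below.

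The gained and lost regions differed in where else they were open, which played no part in their choice. Of the gained regions 45.4% were also called in iPSCs (95% Wilson interval 44.6 to 46.2%), and of the lost regions 21.8% (21.2 to 22.3%), against 82.7% of the common regions. When the stronger 50% of the regions of each library were compared with each other, the shares were 69.7% and 42.2%. There a region that the other library called in its weaker 50% also counts as gained or lost. Those sets therefore differ from the ones above, and their shares do not show the effect of strength. At D0 the order was turned, with 11.4% of the gained, 49.9% of the lost and 55.4% of the common regions called. At D6T- the shares were 32.5%, 84.7% and 82.6%, and at D9T- 4.45%, 37.1% and 53.8%. The libraries differ in how many regions they hold, from 35811 at D9T- to 129532 at D6T-, so shares are to be compared between sets within a library. These intervals and those below cover the sampling of regions only. The H3.3 and non-targeting siRNA libraries of day 6 held 5.59% and 6.11% of the gained regions, and 47.2% and 46.1% of the lost ones.

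**Figure D2:**
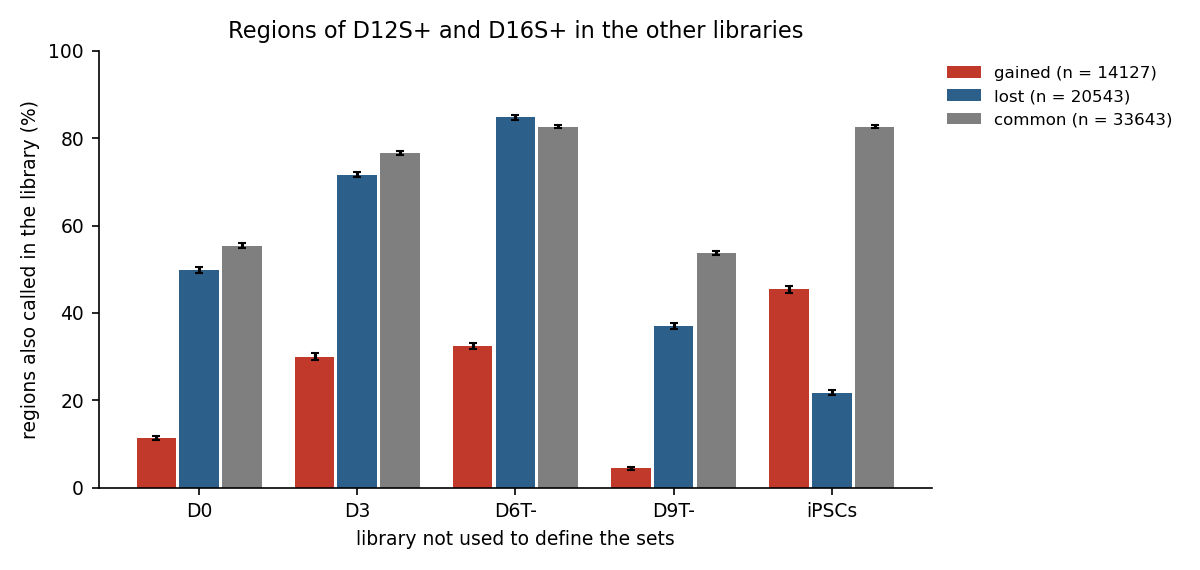
Share of the gained, lost and common regions of the D12S+ and D16S+ comparison that were also called in 5 other libraries, in percent. Bars are shares, and error bars are 95% Wilson intervals over regions (1 library per condition). At D0 11.4% of the gained and 49.9% of the lost regions were called, and in iPSCs 45.4% and 21.8%.

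Most lost regions were older openings that iPSCs lack. Of the 20543 lost regions, 70.5% were called in D0, D3, D6T- or D9T- and not in iPSCs, and 17.6% in both, against 13.7% and 72.6% of the common regions. Being called in any of these earlier libraries did not set the lost regions apart, with 88.0% of the lost and 86.3% of the common regions. The gained regions were mixed. In 24.4% no earlier library but iPSCs had the region, in 20.9% both had it, in 23.4% an earlier library alone had it, and 31.2% were called in no other time-course library. The gained regions in no other library were of similar strength, with a median of 13 tags. Stronger regions were more sharply divided. When the regions were split by level into 4 equal groups, in the strongest group of the gained regions 53.7% were called in iPSCs and 9.43% at D0, against 39.5% and 11.8% in the weakest. In the strongest group of the lost regions 66.4% were called at D0, against 38.0% in the weakest, while 21.9% and 22.2% were called in iPSCs. Among the common regions the share called in D0 fell from 81.1% of those with a log2 change under -1.5 to 21% of those at 1 and over, and the share called in iPSCs went from 54.4% to 87.7%.

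Gained and lost regions lay mostly away from promoters. The promoter, here 3 kb upstream of a TSS, held the midpoint of 14.7% of the gained regions, 12.3% of the lost and 34.0% of the common ones. Genebodies held 40.1%, 47.8% and 37.4%, and intergenic sequence held 45.2% of the gained and 28.5% of the common regions. Among the regions in genebodies, the midpoint was exonic in 19.1% of the gained, 9.61% of the lost and 34.9% of the common ones. Over 50 kb from any TSS were 22.3% of the gained, 19.2% of the lost and 10.3% of the common regions. The GC content was 53.5% at the median gained summit, 50% at the lost and 57% at the common summits.

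The word of AP-1, TGANTCA, separated lost from gained regions. Words were sought on both strands in the 200 bp at the summit, where a match is a description and not a bound site. AP-1 words lay in 32.8% of the lost (95% Wilson interval 32.2 to 33.4%) and 5.62% of the gained regions (5.25 to 6.01%), against 7.49% of the common and 24.2% of all 204843 regions of the 7 time-course libraries. The words of TEAD (TGGAATG) and RUNX (TGTGGTT), other factors of mesenchymal enhancers, lay in 6.30% and 6.49% of the lost and in 3.29% and 3.01% of the gained regions. Of the lost regions with an AP-1 word, 73.6% were called at D0, 97.5% at D6T- and 9.00% in iPSCs, and of those without it 38.3%, 78.5% and 28%. Among common regions outside promoters, the share with an AP-1 word fell from 51.4% of 148 regions with a log2 change under -1.5 to 5.59% of 519 regions at 1 and over.

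Gained regions held the ZEB word, CAGGTG, the E-box that Zeb and Snail repressors of epithelial genes can bind and that other E-box factors share. It lay in 27.8% of the gained (27.0 to 28.5%), 12.8% of the lost, 18.2% of the common and 14.8% of all time-course regions. The GRHL word AACCNGTT, of the grainyhead-like activators of epithelial genes, lay in 3.36% of the gained and 1.43% of the lost regions, and the ETS word CCGGAAG in 4.14% and 1.44%. In windows whose sequence has 1 copy in the genome these were 1.65% (1.43 to 1.91%) and 1.43% (1.27 to 1.60%) for GRHL, whose intervals overlap, and 2.61% and 1.48% for ETS. Common regions with 1 copy held GRHL words in 1.38% and ETS words in 7.17%. The ETS word was thus rarer in the gained than in the common regions with 1 copy. Pluripotency words were rare. OCT-SOX (TTGTNATGC) lay in 1.10% of the gained and 1.07% of the lost regions, whose intervals overlap, and the SOX word CCATTGT in 3.57% and 3.83%. Below 45% GC, where both words were the most frequent, OCT-SOX lay in 4.27% (3.37 to 5.38%) of the gained and 1.98% (1.60 to 2.45%) of the lost regions, and SOX in 8.47% (7.19 to 9.95%) and 5.38% (4.74 to 6.10%). The common regions below 45% GC held more, with OCT-SOX in 7.45% (6.43 to 8.62%) and SOX in 10.1% (8.90 to 11.4%). In every band from 45% GC upwards the intervals of gained and lost regions overlapped for both words. Among the common regions at least 2-fold higher at D16S+, however, SOX words lay in 9.08% (7.12 to 11.5%) and OCT-SOX words in 2.87% (1.85 to 4.45%), against 4.35% (3.29 to 5.72%) and 1.45% (0.894 to 2.34%) of those at least 2-fold lower. In windows with 1 copy the SOX word lay in 5.72% (3.96 to 8.19%) of the higher and 4.10% (3.06 to 5.48%) of the lower regions, and OCT-SOX in 2.12% (1.15 to 3.86%) and 1.43% (0.869 to 2.35%), so that the intervals overlap for both words. Of the 156 gained regions with an OCT-SOX word, 61.5% (53.7 to 68.8%) were called in iPSCs, against 45.2% of those without. For the octamer word ATGCAAAT alone, the shares were 46.1% (40.8 to 51.5%) of 330 regions with it and 45.4% of those without. The ESRRB word TCAAGGTCA, of an orphan receptor of the naive network, was present in 86 gained regions, 62.8% (52.2 to 72.3%) of them called in iPSCs.

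**Figure D3:**
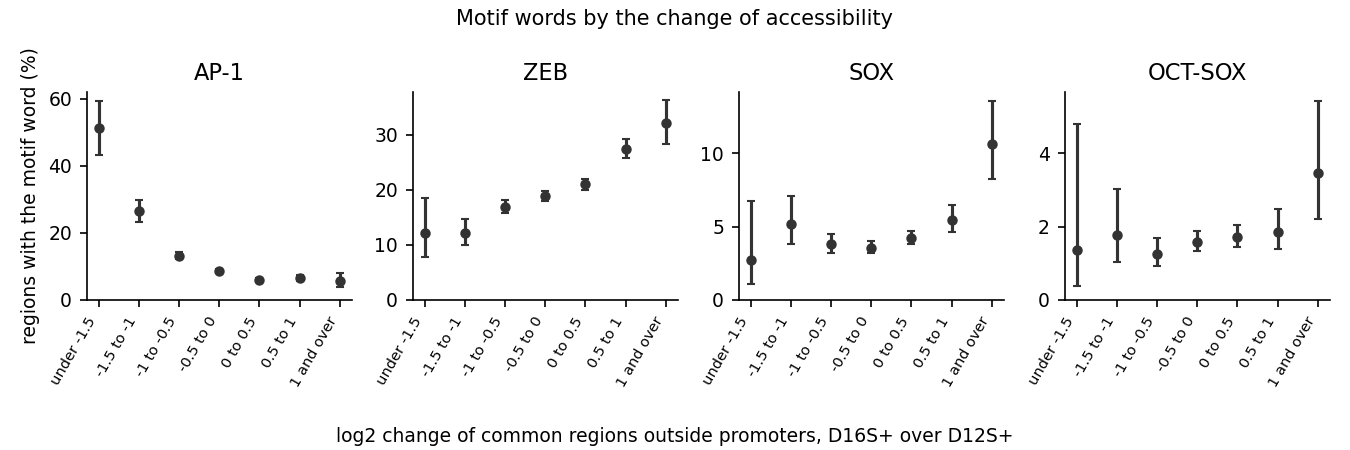
Share of common regions outside promoters that hold the AP-1, ZEB, SOX or OCT-SOX word, in percent, by the log2 change of D16S+ over D12S+. Points are shares and error bars 95% Wilson intervals over regions. AP-1 words fell from 51.4% to 5.59% from the lowest to the highest group, and ZEB and SOX words rose from 12.2% to 32.2% and from 2.70% to 10.6%. Windows of any number of copies are included. In windows with 1 copy, promoters included, SOX words lay in 5.72% of the regions at least 2-fold higher and 4.10% of those lower, with overlapping intervals.

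GC content moves with these words and with the libraries. Within each of 5 bands of GC content, AP-1 words were more frequent in lost and ZEB words in gained regions. Below 45% GC, AP-1 words lay in 39.6% of the lost and 10.2% of the gained regions, and ZEB words in 6.84% and 17.1%. All time-course regions in that band held them in 39.1% and 6.53%, so there the lost regions were near this background and the gained regions differed from it. At 60% GC and over, AP-1 words lay in 10.3% and 1.72%, and ZEB words in 17.3% and 39.9%, against 4.43% and 22.4% of all time-course regions in that band. The band held 3487 gained regions. Family 2, with a median GC content of 64% and ZEB words in 92.4% of its members, had 850 gained regions. The bands were not run on windows with 1 copy, so the part of this family in the ZEB shares was not tested.

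Repeated sequence formed a larger part of what opened than of what closed. Of the gained regions 25.5% (24.8 to 26.2%) had a window whose words occurred at a median of 2 or more places on chromosomes 1 to 19, against 5.40% (5.1 to 5.72%) of the lost and 9.65% of the common regions. At 10 or more copies the shares were 14.6%, 1.77% and 3.32%. Of the common regions, 28.6% of those at least 2-fold higher at D16S+ and 5.07% of those at least 2-fold lower had 2 or more copies. The share reached 39.1% in gained regions called in no other time-course library. The methods removed reads that mapped to over 1 place, so copies that differ little keep few reads, and how reads were divided between near-identical copies was not tested.

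The 7 families with at least 100 regions held 14.9% of the gained regions (2100), 1.36% of the lost and 3.89% of the common ones, and 21.6% of the common regions at least 2-fold higher at D16S+. Family 1 had 1526 members, of which 942 were called at D12S+ and 1405 at D16S+ (584 gained, 121 lost), against 21 at D0, 73 at D3, 221 at D6T-, 156 at D9T- and 960 in iPSCs. Members of all families had to be called at D12S+ or D16S+, so copies open in other libraries alone are not counted and the counts in those libraries say nothing of the family as a whole. Its SOX word lay in 18.7% of the members and its OCT-SOX word in 8.91%, against 4.09% and 0.93% of all time-course regions, and 74.2% of the members were intergenic. The common members had a median log2 change of 0.29, with 84 at least 2-fold higher and 12 at least 2-fold lower. Family 2 had 999 members, 149 called at D12S+ and 993 at D16S+. Of these 850 were gained and 6 lost, none was called at D0, 150 were called at D3 and 339 in iPSCs. ZEB words lay in 92.4% of its members, ETS words in 32.2% and GRHL words in 27.6%. In windows with 1 copy, ZEB words lay in 23.9% of the gained and 12.8% of the lost regions.

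The other families were smaller. Family 3 (431 members) went from 86 called at D12S+ to 425 at D16S+, and family 7 (114 members) from 8 to 113. Family 4 (359 members, 206 and 338 called) held an octamer word in 27.0% and a ZEB word in 54.9% of its members, and family 6 (117 members, 57 and 106 called) an AP-1 word in 84.6%. Family 5, the simple repeat, ran the other way with 141 of 143 members called at D12S+ and 29 at D16S+. It was also called at D3 (130 members) and D6T- (74), and hardly at D0 (5), D9T- (3) or in iPSCs (6). Families 2, 3, 5 and 7 had median GC contents from 62.5 to 66%. The part of GC content in these counts was not tested.

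**Figure D4:**
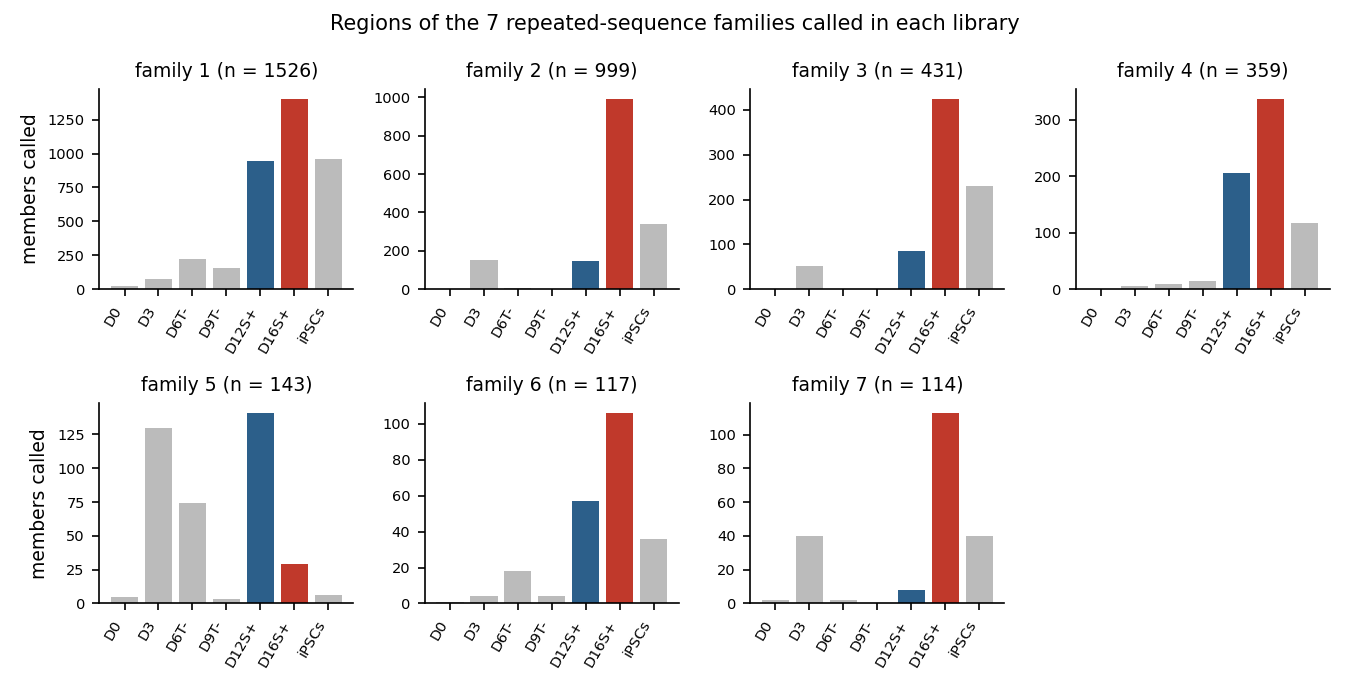
Number of regions of 7 families of repeated sequence called in each time-course library, with D12S+ in blue, D16S+ in red and the others in grey. Each panel has its own vertical axis from 0, and n is the number of members that are gained, lost or common. Families 1, 2, 3, 4, 6 and 7 had more members called at D16S+ than at D12S+, and family 5 had 141 at D12S+ and 29 at D16S+.

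In windows with 1 copy, the relation to iPSCs remained. The filter goes by the median copies of a window and not by family, so family members with 1 copy were kept. Of the 10527 gained regions with 1 copy, 50.6% were called in iPSCs, 13.3% at D0 and 40.2% at D6T-. Of the 19434 lost regions with 1 copy, 22.1% were called in iPSCs and 51.5% at D0. AP-1 words lay in 6.22% of these gained and 33.7% of these lost regions.

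Single regions with the highest levels showed both kinds of sequence. Of the 10 strongest gained regions, those near Rpl27a-ps2 (47 tags at D16S+), Pde1c (46), Cxcl12 (45), Ythdc2 (39) and Vmn2r111 (37) belonged to families 1 to 3, and those near Zic4 (47) and Gm6420 (38) had 20 and 215 copies. The remaining 3 had 1 copy, in Wdr64 (48 tags, 2.27 CPM), near Kcng3 (38 tags) and near Gm20479 (37 tags), and all 3 were also called in iPSCs. Of the 10 strongest lost regions, 5 belonged to family 5, near Abca13 (81 tags at D12S+), Sema5b (56), Ttc39b (55), Lrrtm4 (45) and Epha3 (44). The other 5 had 1 copy and were called in D0, D3, D6T- and D9T- and not in iPSCs. They lay near 4922501C03Rik (53 tags), Smyd3 (49), Sp8 (48), B3gat1 (47) and Psd3 (45), and 4 of them held an AP-1 word. In the Smyd3 region the levels were 2.33 CPM at D0, 4.10 at D3, 8.74 at D6T-, 3.03 at D9T- and 2.78 at D12S+.

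The largest increase among common regions was at the promoter of Adamts1, an extracellular metalloproteinase, from 13 to 63 tags. The ratio of CPM was 4.03, with an exact 95% interval of 2.20 to 7.99 that covers counting error only. It had stood higher at D6T- (5.24 CPM) than at D16S+ (2.98 CPM), and was at 1.02 CPM in iPSCs. Next were regions near Ifltd1 (10 to 47 tags), 1700008P02Rik (11 to 51), C130079G13Rik (15 to 67), Rps6kc1 (10 to 44), Kcnd2 (15 to 65), Tdpoz5 (11 to 47), Ndn (11 to 47), Lrp1b (10 to 42) and Fam129b (8 to 33). The regions near 1700008P02Rik, C130079G13Rik and Tdpoz5 were of family 1, that near Kcnd2 of family 4 and that in Lrp1b of family 2. Of the 10 only the region in Lrp1b was not called in iPSCs, which is near the share of all 661 regions at least 2-fold higher (87.7% called). The largest fall was near Atp11b, from 74 to 12 tags, or 7.41-fold lower (ratio 0.135, 0.0667 to 0.25). Other regions were lower near Lrrc10 (41 to 10 tags, family 5), Nmur2 (47 to 12), Cdk6 (35 to 9), Ube3a (46 to 12), Zswim6 (35 to 10), Insig1 (35 to 10), Tssc1 (42 to 12) and D430042O09Rik (49 to 14). At the promoter of Nppb, which encodes a natriuretic peptide, the tags went from 50 to 13, 4.62-fold lower (ratio 0.216, 0.108 to 0.404), after 6.92 CPM at D6T-.

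Promoters of protein-coding genes changed little as a class. Of 21418 such genes 13058 had a promoter region in both libraries, 591 (2.76%) at D16S+ alone and 596 (2.78%) at D12S+ alone. Of the 13058, 138 (1.06%) were at least 2-fold higher and 169 (1.29%) at least 2-fold lower, and the median log2 change was -0.05. The naive pluripotency genes stood at a median of 0.18 over 13 promoters called in both, with 8 higher and 5 lower, against 5900 higher and 7158 lower of all 13058. Fgf4, a growth factor gene that Oct4 and Sox2 activate, went from 9 to 31 tags (0.511 to 1.46 CPM, ratio 2.87, 1.33 to 6.84). Zfp42 (Rex1), a marker of the naive state, went from 23 to 61 tags (1.31 to 2.88 CPM, ratio 2.21, 1.35 to 3.74). Neither promoter was called at D0, D6T- or D9T-, that of Fgf4 was called at D3 with 0.364 CPM, and they stood at 1.20 and 1.5 CPM in iPSCs. Nr5a2, a nuclear receptor that can replace Oct4 in reprogramming, had no promoter region at D12S+ and 17 tags at D16S+, and the OCT-SOX window shown above is a second gained region inside the gene with 15 tags. Around Nanog, the promoter had 15 and 28 tags (ratio 1.55, 0.802 to 3.13) and an intergenic region 8591 bp from the TSS 15 and 36 tags (ratio 2.00, 1.07 to 3.92). Tbx3 went the other way, from 81 to 56 tags (ratio 0.575, 0.402 to 0.819).

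Genes that mark the later pluripotent state had 13 of 15 promoters called in both libraries and 2 gained, with a median log2 change of 0.23 and 10 of 13 higher. The gained ones were Dppa2 (14 tags at D16S+) and Dppa4 (12 tags), neighbouring genes whose products bind DNA together, and neither promoter was called in any earlier library while both were in iPSCs. Lin28a, an RNA-binding inhibitor of let-7, had 13 and 28 tags (ratio 1.79, 0.898 to 3.77), which includes 1. The epithelial promoters had a median of 0.32 over 15 called in both, with 11 higher. Cldn7 (27 tags) and Krt18 (11 tags) were gained and Ovol1 (16 tags at D12S+) was lost. Ocln, which encodes occludin, went from 18 to 42 tags (ratio 1.94, 1.09 to 3.58). The promoter of Cdh1 (E-cadherin) had 24 and 35 tags (ratio 1.21, 0.701 to 2.13), and 4 regions inside Cdh1 were lost.

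**Figure D5:**
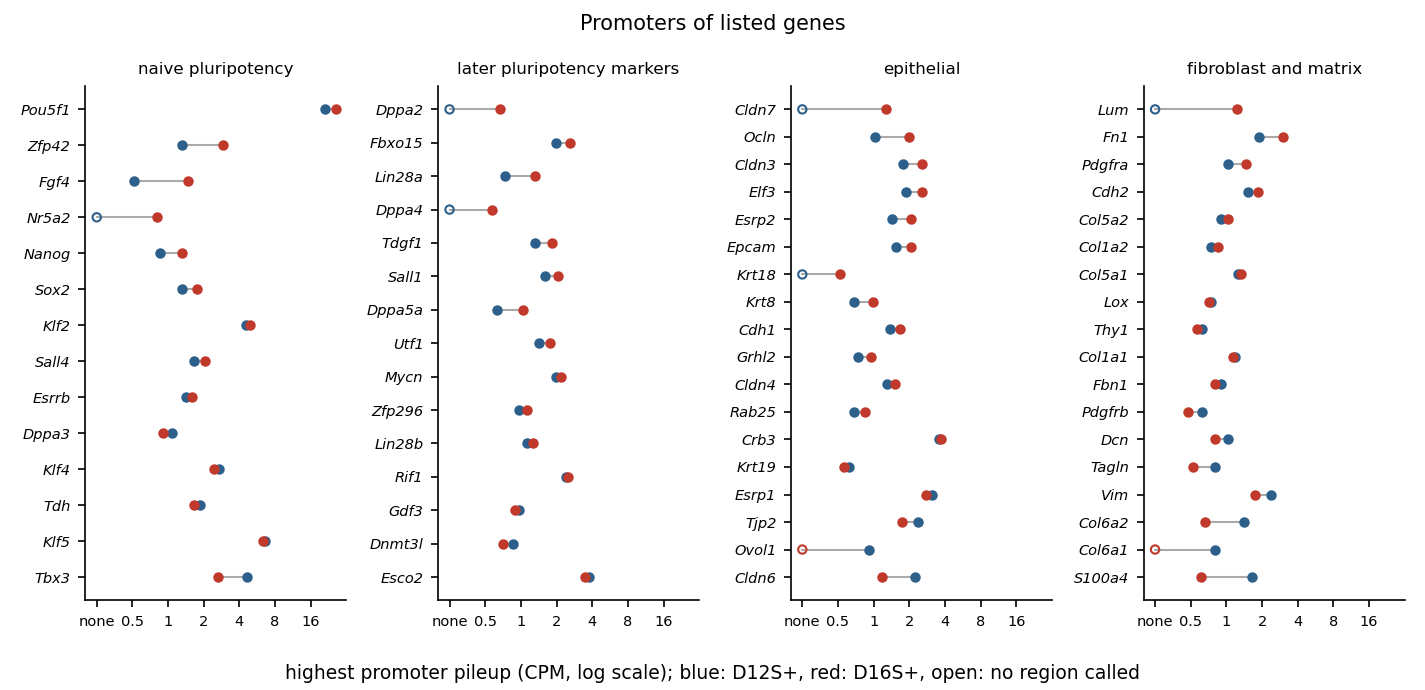
Highest promoter pileup of listed genes in CPM (log scale) at D12S+ (blue) and D16S+ (red), for the genes with a promoter region in either library. Open circles at the left edge stand for no region called. Fgf4, Zfp42, Nr5a2, Dppa2, Dppa4 and Cldn7 were higher or called at D16S+ alone, and S100a4, Col6a1 and Col6a2 were lower or called at D12S+ alone.

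Fibroblast and matrix genes had a median promoter change of -0.11 over 16 promoters called in both, 10 of them lower, which is close to the share of all promoters (7158 of 13058). S100a4, a calcium-binding protein of fibroblasts, went from 29 to 13 tags (ratio 0.373, 0.178 to 0.740) after 3.93 CPM at D6T-, and its promoter was not called in iPSCs. Col6a2 went from 25 to 14 tags (ratio 0.466, 0.224 to 0.931), and the neighbouring collagen VI gene Col6a1 lost its region of 14 tags. Both collagen promoters were called in iPSCs, at 0.527 CPM for Col6a2 and 0.64 CPM for Col6a1. Lum, a keratan sulfate proteoglycan, was gained with 26 tags at a family 1 window of 120 copies that no earlier library held. From the promoter to the TTS, 9 of these 23 genes had more lost than gained regions and 3 had more gained, against 4984 and 2976 of the 21418 protein-coding genes. Among the latter 29.9% had a lost and 23% a gained region.

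Genes of the TGF-beta pathway, which upholds the mesenchymal state, had 21 lost and 4 gained regions in 10 genes, against 12305 lost and 7711 gained in all protein-coding genes. Tgfbr2, the type II receptor, had 5 lost and no gained region, and Smad3, a signal transducer, had 7 lost and 1 gained. The lost regions of Tgfbr2 had 9 to 18 tags at D12S+, and all 5 were called at D6T- and none in iPSCs. Of all lost regions 84.7% were called at D6T- and 21.8% in iPSCs, so these 5 are not set apart from the rest. The 10 promoters of the pathway were called in both libraries, with a median log2 change of -0.13. TEAD and YAP genes, the end of the Hippo pathway, had 19 lost and 9 gained regions, closer to the proportion in all genes, and the promoter of the YAP target Ankrd1 (12 tags) was lost. Wnt genes ran opposite, with 25 gained and 11 lost regions and more gained than lost in 8 of 10 genes. Lef1 had 6 gained regions and Tcf7 had 5, both DNA-binding partners of beta-catenin, and these had 11 to 15 tags each. Of the Wnt promoters, Dkk1, a secreted inhibitor, was gained (16 tags) and Wnt3 lost (12 tags), and the 8 called in both had a median of -0.32.

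Among genes of other lineages, neural promoters had a median change of 0.67 over 5 called in both, with 8 gained and no lost region in the genes. Zic1, a zinc finger factor, had 12 tags at D12S+ and 32 at D16S+ at the highest promoter summit, which at D16S+ lay in a gained region. Neurog2 was gained with 18 tags, and Pax3 had a region in both libraries that reached its promoter at D16S+ alone. Single promoters were gained at Cdx2 (18 tags), Sox7 (13), Fgf15 (18), Meox1 (17) and the germline genes Mael (20) and Sycp3 (13), and those of Piwil2 (11 tags) and Cdh5 (12) were lost. Of the enzymes that make the sorting marker, Fut4 was gained at its promoter (13 tags) and had been called at D0, D3 and D6T-, and Fut9 had 29 and 38 tags. The lists of mesenchymal transcription factors, AP-1, LIF and Stat3, Nodal, Polycomb and DNA methylation and Tet genes had no promoter called in both libraries that changed 2-fold, with median log2 changes from -0.27 to 0.09. The DNA methylation and Tet genes had 22 lost and 8 gained regions, and the AP-1 genes themselves 2 lost and 6 gained. The medians of the remaining lists were 0.21 for primed epiblast (7 promoters called in both), 0.29 for surface markers (9), 0.20 for endoderm (5), -0.02 for trophoblast (3) and -0.26 for germline genes (2), and the macrophage and endothelial lists had 1 and 2 such promoters.

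By gene, the most gained less lost regions were in C130026I21Rik (37 gained, 20 lost) and Gm13242 (28 gained, 11 lost), in the calcium channel genes Cacna1a (8 and 0) and Cacnb2 (9 and 3), and in the cell adhesion gene Cntn4 (8 and 0). A530032D15Rik (11 and 4), Heatr7b1, Rtn4rl1 (7 and 0 each), Fbxo36 (6 and 0) and Fhit (7 and 1) followed. The most lost less gained regions were in Fgfr2 (56 lost, 21 gained) and Gm20388 (72 and 45), whose annotated models span 3009 and 4435 kb. Then came Auts2 (19 lost, 2 gained), 2010111I01Rik (18 and 3), the kinase subunit gene Prkag2 and Stard13 (16 and 1 each), the cytoskeletal linker Dst (15 and 2), Ank3 (14 and 2) and the phosphatases Ptpn14 and Ptprm (13 and 1 each).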

How the data were processed

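ATAC-Seq peak tables of 9 libraries were used, 1 per condition, grouped by the sample titles. Per the methods, the authors mapped reads to mm9 with STAR, dropped reads with over 2 mismatches or over 1 locus and removed duplicates with Picard. Per the file headers, peaks were called with MACS2 2.1.0.20151222 without a control or local background, at a q-value cutoff of 0.05, with tags of 51 bp extended to 200 bp. The deposited pileup (signal) counts the extended tags that cover each summit and is not scaled for depth. The deposited fold enrichment is a ratio to evenly spread tags, and the deposited significance is −log10 of p and q. Mitochondrial peaks stood in the files, so the totals hold those tags.

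Peaks were merged and compared as described, on chromosomes 1 to 19, with the GENCODE vM1 genes of mm9. Shares have 95% Wilson intervals, and ratios of pileups have exact conditional binomial (Clopper-Pearson) intervals that cover counting error only and treat tags as independent molecules. A median of 24-base word counts over both strands gave the copies of a window. Named were listed genes (226 in 21 lists, 6 not found) with a promoter called in 1 library or changed at least 2-fold, up to 4 a list, the 10 strongest gained and lost regions, the 10 largest rises and falls among common regions with at least 20 tags in the higher library, and the 10 genes at either end of gained less lost regions. Others, such as Nanog, Tbx3, Ocln, Cdh1, Lin28a, Tgfbr2, Smad3, Lef1, Tcf7 and Fut9, were chosen after their values were seen. The members, lists and words were chosen with earlier results of these data known. Alternatives were the stronger 50% of the regions, the same number of regions, overlap, summit distance, fold, promoter, window and gene set. The functions were tested on simulated data and ran in Python 3.11.15 with numpy 2.4.6, scipy 1.17.1 and matplotlib 3.10.9.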

Additional observations from a re-analysis of the deposited data

How the results depend on the processing

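With 1 library per condition no replicate could be left out. No paired analysis was possible because each group had 1 library and no replicate numbers were shared. With the stronger 50% of the regions of each library there were 6730 gained, 9156 lost and 19005 common regions. Of the common ones 181 were at least 2-fold higher and 253 lower at D16S+, and iPSCs held 69.7% of the gained and 42.2% of the lost regions. In that setting a region called in the weaker 50% of the other library also counts as gained or lost. A 1.5-fold threshold gave 3184 higher and 4630 lower common regions and a 3-fold threshold 44 and 127. Fold enrichment in place of CPM gave 769 higher and 670 lower regions and a median log2 change of 0.03, so the excess of lower regions turned. The share of gained regions called in iPSCs was 48.2% when equal numbers of the strongest regions were taken, 46.3% with an overlap of 50% of the shorter region, 47.1% with summits within 500 bp and 50.6% in windows with 1 copy, and that of the lost regions was 23.3% and 24.4% with that overlap and that summit distance. In every setting run, gained regions were more often called in iPSCs than lost ones. Lost regions outnumbered gained ones except at equal region numbers, with 16337 gained and 16170 lost, where near equality is by construction. Of the values that answer a comparison, 39 stayed within the limits and 18 moved, and of the others 26 and 20. The windows with 1 copy, the totals without mitochondrial tags and the minimum of 20 tags were chosen after seeing the data. The cause of these shifts was not tested. Depth limits the weaker regions, since 8 or 9 tags made a call.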
